A study of Homo sapiens with 9 samples.

Results

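Transcripts of 10 genes that are used as markers of heart muscle cells were followed in cultures of HUES9, an established human embryonic stem cell line. They were taken by symbol from the table of read counts, as 10 of 27730 gene symbols, and all 10 were found there on a row of their own. The set holds the myosin heavy chains MYH6 and MYH7, the myosin light chains MYL4 and MYL7, troponin T (TNNT2), alpha-actinin 2 (ACTN2), titin (TTN), the ryanodine receptor RYR2, and the natriuretic peptides NPPA and NPPB. RNA was sequenced from 9 libraries in 3 groups of 3, which the labels call independent experiments. The groups were cells at day 1 with no agent, cells at day 13 with 10 µM RP22 and cells at day 13 with 10 µM AA147. According to the labels AA147 activates ATF6, which switches on genes of the endoplasmic reticulum stress response, and RP22 is an analog that does not. All 3 groups came from the same line, kept on mitomycin-treated mouse feeder cells, and the day 13 groups were differentiated as embryoid bodies made by centrifugation and then plated on Matrigel, with no step in the labels that directs cells to heart muscle. Solvent-only cultures were not analysed here, and whether mouse feeder RNA added reads was not tested.

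The sarcomere is the contractile unit of striated muscle, in which myosin thick filaments pull on actin thin filaments that are anchored in Z-discs. Calcium released from the sarcoplasmic reticulum through ryanodine receptors starts contraction by binding to the troponin complex on the thin filament. Early and atrial heart muscle uses the heavy chain MYH6 with the light chains MYL4 and MYL7, and the natriuretic peptides are hormones that heart muscle secretes when it is stretched and in the embryo. Several of these genes are also transcribed outside the heart, and MYH7 is the heavy chain of slow skeletal muscle.

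Library totals ranged from 9223027 to 10118258 reads. Levels are given as reads per library or as CPM, counts brought to a common depth by TMM scaling of the 9 libraries. Scaling by library totals alone moved the median over all genes, in log2, from -0.03 to -0.49 for AA147 against RP22, from -0.04 to -0.48 for AA147 against day 1 and from 0.02 to 0.12 for RP22 against day 1. In several of the 10 genes the first RP22 replicate (replicate 1) lay away from the other RP22 libraries (MYL4, MYL7, TNNT2, TTN and NPPB), and their values without it are given too. The day 1 cells carried the markers of pluripotent stem cells, with reads for all 8 genes of a marker list and a summed level of 6300.0 to 7126 CPM, against 396.6 to 682.5 CPM with RP22 and 126 to 158.5 CPM with AA147.

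With RP22, the transcripts of 6 of the 9 genes tested were higher at day 13 than at day 1, namely MYH6, MYH7, MYL4, MYL7, TNNT2 and NPPB. Of all genes tested, 36.6% were higher in this comparison. With AA147, 4 of the 7 genes tested were higher than at day 1 (MYL4, MYL7, TNNT2 and NPPB), against 38.7% of all genes tested. MYH6 and MYH7 stayed at 1 read or none over 3 libraries and were not tested there. Between the compounds at the same dose and day, MYL7 and NPPB were higher with AA147 and MYH6 and MYH7 were lower. These 2 higher and 2 lower of 9 genes tested are near the shares over all genes, 29.8% higher and 32.2% lower. ACTN2, TTN and RYR2 passed the test in none of the 3 comparisons, and NPPA had too few reads to be tested. In these bulk cultures, fewer cells of a type and less RNA per cell cannot be told apart.

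**Figure D1:**
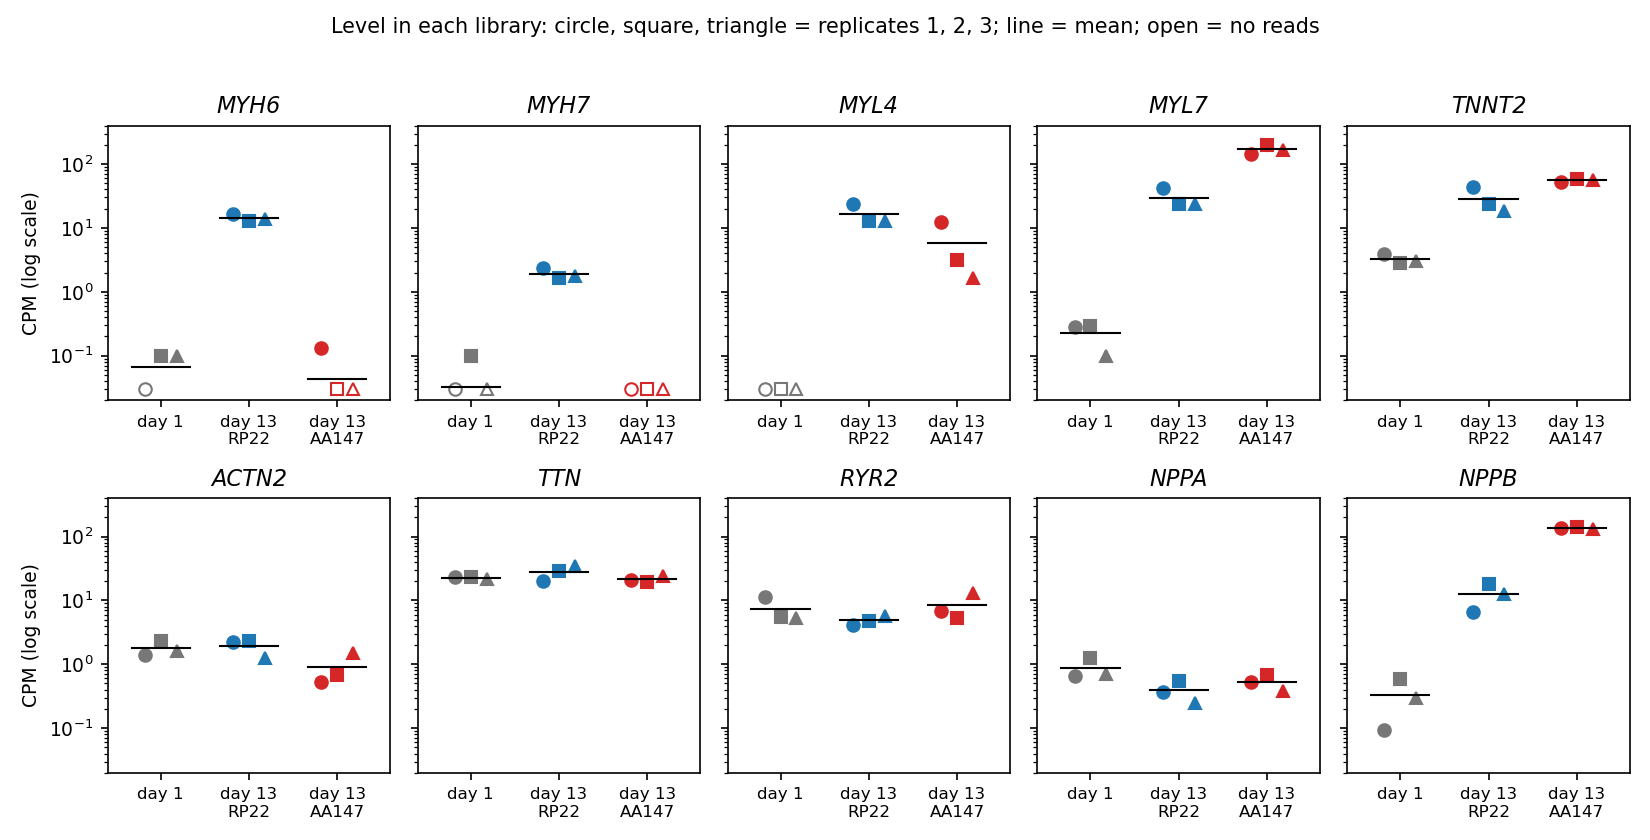
Level of each of the 10 genes in each of the 9 libraries, in CPM on a log axis, with day 1 in grey, RP22 in blue and AA147 in red. Circles, squares and triangles are replicates 1, 2 and 3, lines are group means, and open symbols at the bottom are libraries with no reads. MYH6 and MYH7 are seen in the RP22 group, and NPPB and MYL7 are highest in the AA147 group. Over the 9 libraries ACTN2 runs from 0.524 to 2.33 CPM, TTN from 19.6 to 34.6, RYR2 from 4.11 to 13.0 and NPPA from 0.251 to 1.26.

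MYH6 encodes the alpha heavy chain, the motor of the thick filament in atrial muscle. It had 0, 1 and 1 reads in the day 1 libraries (replicates 1, 2 and 3), 177, 141 and 167 reads with RP22, and 1, 0 and 0 reads with AA147. The RP22 libraries were close to each other, and the other 6 libraries held 3 reads in all. The mean level with RP22 was 14.4 ± 1.90 CPM (SD, n = 3). On the CPM scale, RP22 exceeded AA147 by a ratio of 329 (95% counting interval 58.7 to 13016), and exceeded day 1 by a ratio of 224 (61.7 to 1855.6). The edgeR quasi-likelihood test gave adjusted p = 1.1e-05 for AA147 against RP22 and adjusted p = 2.7e-06 for RP22 against day 1. Without AA147 replicate 1, which held the AA147 read, MYH6 was at least 73.0-fold higher with RP22, taking 3 reads as the floor for the remaining AA147 libraries. AA147 against day 1 was not tested, with 1 read against 2.

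MYH7 encodes the beta heavy chain, the motor of ventricular and slow skeletal muscle. It had 25, 18 and 21 reads with RP22, 0, 1 and 0 at day 1, and none in the AA147 libraries. Against a floor of 3 reads over the 3 AA147 libraries, it was at least 14.5-fold lower with AA147 than with RP22 (edgeR adjusted p = 0.00073). RP22 exceeded day 1 by a ratio of 59.1 (95% counting interval 10.2 to 2371.9, edgeR adjusted p = 0.00016), and without day 1 replicate 2, which held the day 1 read, it was at least 13.2-fold higher.

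The heavy chain genes lie next to each other with no gene between them in the RefSeq annotation, and their messages are similar. In GENCODE transcripts, 14.8% of the windows of 50 bases in MYH6 also occur in MYH7, and 5.29% of windows of 100 bases. MYH6 made up 87.6%, 88.7% and 88.8% of the reads of both genes in the RP22 libraries, with Wilson 95% intervals of 82.4 to 91.5%, 82.8 to 92.7% and 83.5 to 92.6%. The share was thus alike in the 3 libraries, and how far MYH6 reads were counted for MYH7 was not tested. With AA147 only 1 library had a read of either gene, so the share could not be compared between the compounds. The rows for MIR208A and MIR208B, microRNAs in introns of these genes, held no reads in any library.

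MYL7 encodes the atrial regulatory light chain, which binds the neck of the myosin head. It had 3, 3 and 1 reads at day 1, 451, 257 and 287 with RP22, and 1106, 1418 and 1325 with AA147. All AA147 libraries lay above all RP22 libraries, and all RP22 libraries above day 1. The mean level was 169.2 ± 25.4 CPM with AA147 and 29.8 ± 10.6 CPM with RP22 (SD, n = 3). Between AA147 and RP22 the log2 fold change was 2.42 ± 0.253 (SE), with an edgeR adjusted p = 0.00035. Against day 1, MYL7 was higher by 6.98 ± 0.422 on the log2 scale with RP22 (edgeR adjusted p = 5.7e-06) and by 9.47 ± 0.227 with AA147 (adjusted p = 1.3e-09). These comparisons share their day 1 libraries. Without RP22 replicate 1 the log2 fold change was 2.77 for AA147 against RP22 and 6.64 for RP22 against day 1.

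MYL4 encodes the atrial essential light chain, which is also made in embryonic skeletal muscle. It had no reads at day 1, 256, 139 and 153 reads with RP22, and 96, 23 and 13 with AA147. The mean level was 16.5 ± 6.46 CPM with RP22 and 5.80 ± 5.93 CPM with AA147 (SD, n = 3). The 3 AA147 libraries lay below the 3 RP22 libraries, but barely, with AA147 replicate 1 at 12.6 CPM and RP22 replicate 2 at 12.7 CPM. AA147 replicate 1 stood apart, at 5.23 times the mean of AA147 replicates 2 and 3. The log2 fold change of AA147 against RP22, -1.57 ± 0.740 (SE, 95% interval -3.41 to 0.27), did not pass the edgeR test (adjusted p = 0.12). Without AA147 replicate 1 it was -2.86 (edgeR adjusted p = 0.0024), without RP22 replicate 1 it was -1.19 (adjusted p = 0.27), and DESeq2 gave -1.58 with adjusted p = 0.017. Against the floor of 3 reads over the day 1 libraries, MYL4 was at least 169-fold higher with RP22 (edgeR adjusted p = 7.6e-05) and at least 60-fold higher with AA147 (adjusted p = 0.013). Without AA147 replicate 1, which held 96 of the 132 reads, the latter bound was 24.6-fold (edgeR adjusted p = 0.00035).

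MYL4 and MYL7 share no window of 50 bases in GENCODE transcripts.

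The stretch before the start of MYL7 and that of MYH6 are shown because these genes of the same filament moved in opposite directions. That of TNNT2 follows because the gene is the thin filament member, and that of NPPA because the gene stayed low beside its neighbour NPPB. Windows of this kind were found in the RefSeq promoter table (build GRCh38.p14) for 7 of the 10 genes, and each printed run is the 250 bases before the start, 5′ to 3′ on the gene's strand. Capitals mark matches, on either strand, to 8 motifs. These were the GATA site AGATAA, the E box CAGCTG, the NKX2-5 core site CAAGTG, the TEAD site CATTCC, the CArG box of SRF, the MEF2 site, the ATF6 core site CCACG and the CCAAT box. The MYL7 window is chr7:44141333-44141582, the MYH6 window chr14:23408274-23408523, the TNNT2 window chr1:201377681-201377930 and the NPPA window chr1:11847784-11848033, all on the minus strand.
MYL7: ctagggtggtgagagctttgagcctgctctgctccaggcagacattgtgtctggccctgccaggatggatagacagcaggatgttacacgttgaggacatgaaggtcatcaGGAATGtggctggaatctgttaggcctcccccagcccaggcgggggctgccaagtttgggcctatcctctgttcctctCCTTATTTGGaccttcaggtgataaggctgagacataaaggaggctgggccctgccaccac
MYH6: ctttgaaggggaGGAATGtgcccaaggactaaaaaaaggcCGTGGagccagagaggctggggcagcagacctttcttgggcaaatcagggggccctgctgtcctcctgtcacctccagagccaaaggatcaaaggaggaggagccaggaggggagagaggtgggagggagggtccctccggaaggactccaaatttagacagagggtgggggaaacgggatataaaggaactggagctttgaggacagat
TNNT2: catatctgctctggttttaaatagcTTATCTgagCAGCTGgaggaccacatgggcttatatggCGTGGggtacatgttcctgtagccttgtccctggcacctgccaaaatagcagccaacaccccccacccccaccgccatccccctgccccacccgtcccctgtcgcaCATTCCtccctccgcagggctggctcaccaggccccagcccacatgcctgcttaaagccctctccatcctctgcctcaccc
NPPA: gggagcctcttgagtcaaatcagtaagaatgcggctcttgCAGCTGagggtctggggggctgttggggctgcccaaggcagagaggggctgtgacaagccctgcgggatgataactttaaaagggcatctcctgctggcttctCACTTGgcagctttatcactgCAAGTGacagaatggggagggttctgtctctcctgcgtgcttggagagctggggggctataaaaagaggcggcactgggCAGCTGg

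In the MYL7 window a CArG box lies 61 to 52 bases before the start, a motif that 1.16% of 35116 windows of the same length hold. A TEAD site, held by 11.9% of windows, lies 139 to 134 bases before the start of MYL7 and 238 to 233 bases before that of MYH6. MYH6 also has an ATF6 core site at 210 to 206 bases, as do 33.5% of windows. The TNNT2 window has a GATA site (in 9.17% of windows), an E box (in 14.0%), a TEAD site and an ATF6 core site. In the NPPA window there are 2 NKX2-5 core sites, at 107 to 102 and 86 to 81 bases before the start (9.5% of windows hold at least 1), and 2 E boxes. No 2 matches in these windows overlap. A match describes the letters only, and binding was not measured.

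TNNT2 encodes cardiac troponin T, which ties the troponin complex to tropomyosin. It had 42, 29 and 31 reads at day 1, 476, 263 and 217 with RP22, and 394, 422 and 446 with AA147. In CPM the AA147 libraries (51.7, 58.2 and 56.2) lay just above the highest RP22 library, since RP22 replicate 1 had 44.5 CPM and replicates 2 and 3 had 23.9 and 18.1. For AA147 against RP22 the estimate on the log2 scale was 0.86 ± 0.321 (SE, 95% interval 0.08 to 1.65), with an edgeR adjusted p = 0.058. It was 1.33 without RP22 replicate 1 (edgeR adjusted p = 2.0e-05) and 0.86 with DESeq2 (adjusted p = 0.0061). By library totals alone it was 0.42. Against day 1, TNNT2 was higher by 3.13 ± 0.380 on the log2 scale with RP22 (edgeR adjusted p = 0.00027) and by 4.07 ± 0.139 with AA147 (adjusted p = 9.4e-09). The former was 2.67 without RP22 replicate 1.

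ACTN2 encodes the alpha-actinin that crosslinks thin filaments in the Z-disc of striated muscle. Its reads were few in every group, with 15, 24 and 16 at day 1, 24, 25 and 15 with RP22, and 4, 5 and 12 with AA147. The day 1 and RP22 groups overlapped, as did RP22 and AA147, where AA147 replicate 3 had 1.51 CPM and RP22 replicate 3 had 1.25 CPM. AA147 against RP22 gave a log2 fold change of -1.13 ± 0.468 (SE, 95% interval -2.22 to -0.05), with an edgeR adjusted p = 0.066. It was -1.58 by library totals alone (edgeR adjusted p = 0.015) and -1.71 without AA147 replicate 3 (adjusted p = 0.029). It was -0.86 without AA147 replicate 1 (edgeR adjusted p = 0.18) and -1.16 with DESeq2 (adjusted p = 0.13). For RP22 against day 1 the estimate was 0.11 (95% interval -0.71 to 0.93, edgeR adjusted p = 0.79).

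TTN encodes titin, the elastic filament that spans from Z-disc to M-band. It had 249, 240 and 220 reads at day 1, 216, 317 and 414 with RP22, and 156, 142 and 191 with AA147. It was at a like level in the undifferentiated cells, 22.8 ± 0.790 CPM, and with AA147, 21.4 ± 2.38 CPM, and the RP22 libraries spread from 20.2 to 34.6 CPM. Between AA147 and RP22 the log2 fold change was -0.47 ± 0.201 (SE, 95% interval -0.94 to 0.00; edgeR adjusted p = 0.078). It was -0.63 without RP22 replicate 1 (edgeR adjusted p = 0.0022) and -0.93 by library totals alone (adjusted p = 0.0063). RP22 against day 1, 0.29 ± 0.184 (edgeR adjusted p = 0.19), was 0.47 without RP22 replicate 1 (adjusted p = 0.0058). AA147 against day 1 was -0.09 ± 0.122 (edgeR adjusted p = 0.5) and -0.53 by library totals alone (adjusted p = 0.0025). The row of the antisense gene TTN-AS1 held no reads in any library, and whether reads were counted by strand is not given in the sources used here.

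RYR2 encodes the calcium release channel of the cardiac sarcoplasmic reticulum, which is also made in neurons. It had 124, 56 and 54 reads at day 1, 44, 52 and 69 with RP22, and 52, 39 and 103 with AA147. The groups overlapped in every comparison, and in 2 groups a lone library was high, day 1 replicate 1 at 11.5 CPM and AA147 replicate 3 at 13.0 CPM. For AA147 against RP22 the estimate on the log2 scale was 0.70 ± 0.341 (SE, 95% interval -0.09 to 1.49; edgeR adjusted p = 0.11). It was 0.95 without AA147 replicate 2 (edgeR adjusted p = 0.046), 0.26 without AA147 replicate 3 (adjusted p = 0.45) and 0.24 by library totals alone (adjusted p = 0.54). RP22 against day 1 was -0.61 (95% interval -1.39 to 0.16) and AA147 against day 1 was 0.17 (-0.78 to 1.13), with edgeR adjusted p = 0.13 and 0.71.

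NPPB encodes the B-type natriuretic peptide, which in the adult is made mainly in the ventricle. It had 1, 6 and 3 reads at day 1, 70, 200 and 153 with RP22, and 1029, 1010 and 1053 with AA147. The AA147 libraries were within a narrow range, 135.6 ± 3.37 CPM (SD, n = 3), and the RP22 libraries were at 12.5 ± 5.84 CPM, with replicate 1 at 0.422 times the mean of replicates 2 and 3. The log2 fold change of AA147 against RP22 was 3.35 ± 0.333 (SE), the largest rise among the 10 genes in this comparison, with an edgeR adjusted p = 0.00037. Against day 1 it was 5.23 ± 0.591 with RP22 (edgeR adjusted p = 0.00013) and 8.66 ± 0.211 with AA147 (adjusted p = 1.3e-09). Without day 1 replicate 2, which held 6 of the 10 day 1 reads, these were 5.95 and 9.36. Without RP22 replicate 1, AA147 against RP22 was 3.07 and RP22 against day 1 was 5.53.

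NPPA encodes the atrial natriuretic peptide, and lies beside NPPB with no gene between them in the RefSeq annotation. It had 7, 13 and 7 reads at day 1, 4, 6 and 3 with RP22, and 4, 5 and 3 with AA147, and did not pass the count filter in any comparison. In the deposited RPKM, which has another filter, limma on log2(RPKM + 0.1) put it lower than day 1 with either compound. At these read numbers a difference between the compounds was not detectable. NPPB made up 12.5%, 31.6% and 30.0% of the reads of both peptides at day 1, 94.6%, 97.1% and 98.1% with RP22, and 99.6%, 99.5% and 99.7% with AA147. The AA147 share was 3.03 percentage points above that with RP22 in the mean (99.6 ± 0.104% and 96.6 ± 1.79%, SD, n = 3), and the groups did not overlap (exact two-sided permutation p = 0.1, the smallest that 3 against 3 libraries can give). NPPA and NPPB share no window of 50 bases in GENCODE transcripts. The row of the antisense gene NPPA-AS1 held no reads in any library.

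**Figure D2:**
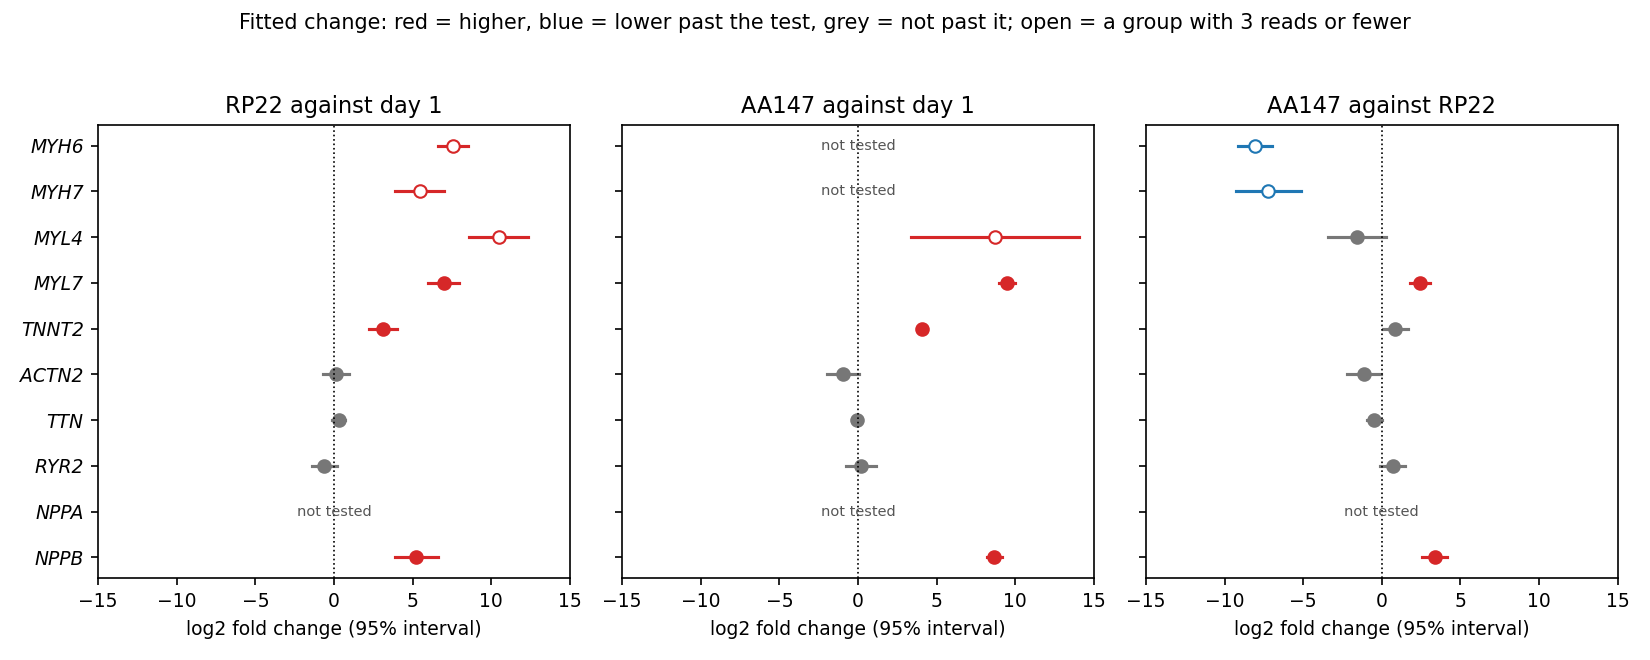
Fitted log2 fold change of each gene with its 95% interval in the 3 comparisons. Red points were higher and blue points lower past the edgeR test, grey points did not pass it, and open points rest on a group with 3 reads or fewer, where the fitted value depends on the prior count. The right panel shows MYL7 (2.42) and NPPB (3.35) above 0 and MYH6 and MYH7 below it.

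Of the 10 genes, 9 passed the count filter for AA147 against RP22, and 2 were higher and 2 lower (edgeR quasi-likelihood test, Benjamini-Hochberg over 14293 genes, threshold 0.05). Among all genes tested, 29.8% were higher and 32.2% lower, so these shares are near the background. The 3 libraries of each group did not overlap in 6 of the 9 genes, 3 in each direction, against 69.9% of all genes. The median log2 fold change was -0.47 over the 9 genes and -0.03 over all genes. For RP22 against day 1, 6 of 9 tested genes were higher and none lower, where 36.6% of 14558 genes were higher and 35.2% lower, and the median was 5.23 against 0.02. For AA147 against day 1, 4 of 7 tested genes were higher and none lower, where 38.7% of 13761 genes were higher and 40.4% lower, with a median of 4.07 against -0.04. In both comparisons with day 1, the lower genes also numbered 0 at an unadjusted edgeR p under 0.05 and with DESeq2. The count filter keeps a gene that is high in only 1 group, so a gene near 0 at day 1 could enter these comparisons with day 1 mostly by rising. Likewise, a gene near 0 with AA147, such as MYH7 (64 reads with RP22 and 0 with AA147), could enter the comparison of the compounds mostly by being lower. A gene near 0 with RP22 could enter it mostly by being higher. This limit also holds for the counts and medians of the lists below.

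Compared per gene length in the deposited RPKM (reads per length of transcript and library depth), the order of the 10 genes changed between groups. At day 1, TNNT2 was first (1.92 ± 0.205 RPKM, SD, n = 3), above NPPA (1.10 ± 0.434), and the next 5 levels, from NPPB to TTN, ran from 0.504 to 0.281 with neighbours that overlapped. With RP22, MYL7 came first (51.6 ± 16.4 RPKM), followed by MYL4 (22.0 ± 7.79), NPPB (20.9 ± 10.2) and TNNT2 (14.98 ± 5.72), where the last 3 overlapped with their neighbours, and then by MYH6 (3.13 ± 0.331). NPPA, ACTN2, TTN, MYH7 and RYR2 all lay between 0.343 and 0.528 RPKM with RP22 and overlapped with their neighbours. With AA147 the order was MYL7 (203.5 ± 26.4 RPKM), NPPB (155.1 ± 4.44), TNNT2 (19.8 ± 1.35) and MYL4 (5.34 ± 5.67), each apart from the next, and no other gene exceeded a mean of 0.495 RPKM. For TNNT2 and TTN the gene length implied by reads and RPKM differed between libraries by up to 1.51 and 1.36 times, so their RPKM levels are less exact.

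**Figure D3:**
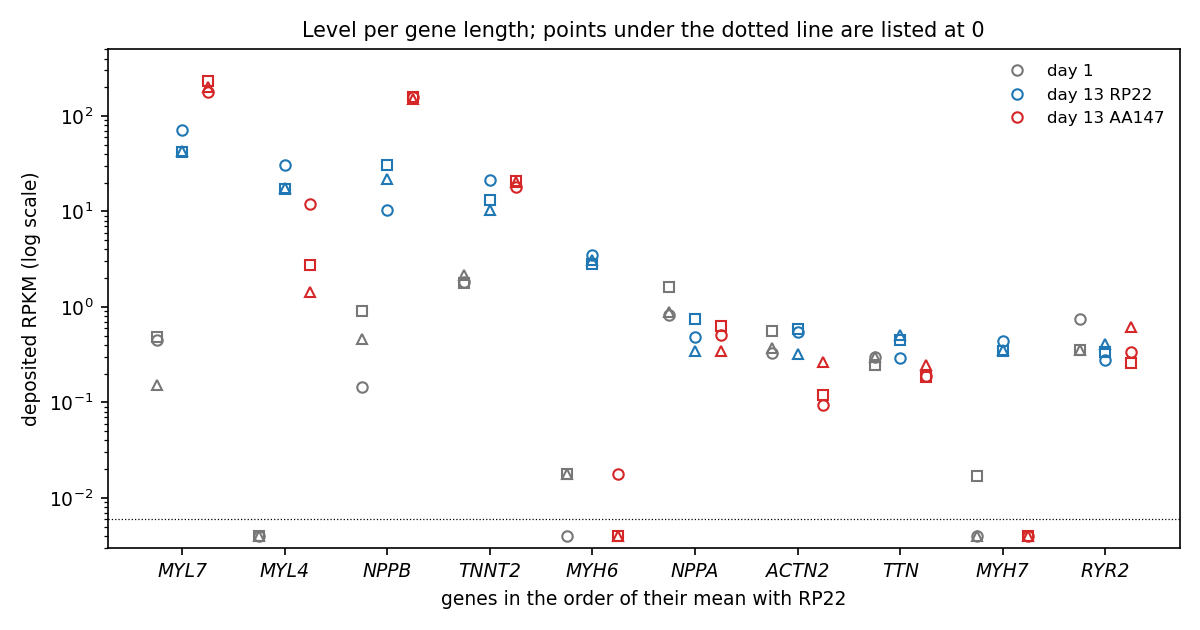
Deposited RPKM of the 10 genes on a log axis, ordered by their mean with RP22, for day 1 (grey), RP22 (blue) and AA147 (red). Each symbol is a library, with circle, square and triangle for replicates 1, 2 and 3, and libraries listed at 0 are drawn under the dotted line. MYL7 and NPPB reach means of 203.5 and 155.1 RPKM with AA147, while MYH6, which has 3.13 RPKM with RP22, drops to the bottom.

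Genes with the most similar profile were sought by the root mean square difference of log2 CPM over the 9 libraries, each gene centred on its own mean. Nearest to MYH6 were EBF2 (0.33) and TLX3 (0.34), transcription factors with 578 and 626 reads with RP22 and 1 and 2 with AA147. Nearest to MYL7 were the fibronectin gene FN1 (0.29) and ANXA8L2 (0.35), and nearest to NPPB were the collagen gene COL12A1 (0.55) and the cardiac actin gene ACTC1 (0.57). MYL4 was closest to the metalloprotease gene ADAM12 (0.41) and to the keratin gene KRT5 (0.44), which shared its high replicate 1 with AA147, with 361, 110 and 138 reads and 78, 10 and 17 reads. TNNT2 was closest to EHBP1L1 (0.19) and PTPN3 (0.24), TTN to VARS2 (0.13) and AGO1 (0.13), and RYR2 to CAMK1D (0.27) and FRAS1 (0.27).

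Other genes related to the sarcomere and to heart muscle were compared through lists, which are not limited to genes of striated muscle. Of 14 listed partners in the thick and thin filament, 10 were tested for AA147 against RP22, and 6 were higher and 1 lower (edgeR, background 29.8% and 32.2%), with a median log2 fold change of 1.71. Cardiac alpha-actin ACTC1 rose from 409.7 ± 101 to 2640.0 ± 163 CPM (SD, n = 3), with a log2 fold change of 2.61 ± 0.179 (SE), and had 22.3 ± 5.28 CPM at day 1. The regulatory light chain MYL9, a smooth muscle gene, rose from 192.7 to 1260.0 CPM (2.63 ± 0.0940). The ventricular light chain MYL2 rose too (3.55 ± 0.654), at 11, 20 and 14 reads against 0, 3 and 2, and without RP22 replicate 2 its log2 fold change was 4.24. The only gene of this list that passed the test as lower was TNNI3, cardiac troponin I. It had 145 reads with RP22 but 1 with AA147 (98.3 times as high, 95% counting interval 17.4 to 3909.8) and 61, 55 and 58 reads in the day 1 cells. In edgeR ACTC1, MYL9, MYL2 and TNNI3 reached an adjusted p of at most 0.0021. The troponin I gene TNNI1 (-2.07) and the light chain gene MYL3 (-1.39) had negative estimates that did not pass (edgeR adjusted p = 0.1 for each). That of the troponin C gene TNNC1 was positive (0.52, edgeR adjusted p = 0.19). The number of lower genes in this list was between 2 and 6 in 10 of the 17 alternatives, among them 2 without AA147 replicate 1 and 3 without AA147 replicate 3.

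Of 30 listed genes of the Z-disc, the M-band and titin partners, 19 were tested. With AA147, 10 were higher and 6 lower than with RP22 (background 29.8% and 32.2%, median 0.56). ANKRD1, a titin-binding protein of the I-band, had 1199 ± 212 CPM with AA147, 74.0 ± 12.2 with RP22 and 0.373 ± 0.564 at day 1, a log2 fold change of 3.94 ± 0.174 between the compounds. The muscle small heat shock protein HSPB7 (3.83 ± 0.447) and the titin-associated ubiquitin ligase TRIM55 (3.0 ± 0.148) rose as well, whereas the LIM protein FHL1 fell (-2.73 ± 0.395), from 57.2 to 9.09 CPM. The highest edgeR adjusted p among these 4 genes was 0.0016. CSRP3, a muscle LIM protein of the Z-disc, had no reads in any of the 9 libraries.

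Of 20 listed genes of calcium handling, 17 were tested, and 9 were higher and 4 lower with AA147 (background 29.8% and 32.2%, median 0.29). By library totals alone 4 were higher and 7 lower, and without AA147 replicate 1 there were 8 lower genes. The ryanodine receptors differed, since RYR3 rose (2.36 ± 0.204, from 8.90 to 48.6 CPM) and RYR1 fell (-2.29 ± 0.406, from 7.58 to 1.64 CPM, and from 47.0 CPM at day 1), while RYR2 did not pass the test. JPH2, which holds the sarcoplasmic reticulum close to the cell membrane, rose (2.39 ± 0.104, from 29.1 to 161.7 CPM). HRC, a calcium-binding protein of that reticulum, had 182 reads with RP22 but 2 with AA147, 61.7 times as high (95% counting interval 16.8 to 513.36). All 4 genes had an edgeR adjusted p of 0.0017 or less.

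Among genes that process, bind or relay natriuretic peptides, more fell than rose. Of 13 listed, 10 were tested, and 2 were higher and 6 lower with AA147 (background 29.8% and 32.2%, median -1.79). Without AA147 replicate 2, without RP22 replicate 3 or by library totals alone, 1 was higher. The clearance receptor NPR3 had 38.9 ± 7.81 CPM with RP22 and 1.26 ± 1.75 CPM with AA147 (log2 fold change -5.00 ± 0.673), where 25 of the 29 AA147 reads were in replicate 1, and without AA147 replicate 1 its log2 fold change was -7.21. The receptor NPR2, which binds C-type natriuretic peptide, fell from 63.1 to 12.1 CPM (-2.47 ± 0.273). The cyclic GMP dependent kinases PRKG1 (-3.99 ± 0.112, from 57.4 to 3.81 CPM) and PRKG2 (-6.42 ± 0.403, from 15.3 to 0.178 CPM) fell. In edgeR these 4 reached an adjusted p of at most 0.0014. FURIN, a convertase that can cleave the NPPB precursor, was among the higher genes (1.08 ± 0.117, from 174 to 388.5 CPM, edgeR adjusted p = 0.00015).

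Of 18 cardiac transcription factors, 17 were tested, and 4 were higher and 9 lower with AA147 than with RP22 (background 29.8% and 32.2%, median -1.76). TBX5 had 56 reads with RP22 but 1 with AA147, 38.0 times as high (95% counting interval 6.54 to 1526.2, edgeR adjusted p = 0.00062). It passed the count filter through its RP22 reads alone. TBX20 (-3.68 ± 1.11), GATA5 (-3.64 ± 1.21) and HAND2 (-3.61 ± 1.14) had edgeR adjusted p = 0.028, 0.04 and 0.041, and all had most of their RP22 reads in replicate 1, with 152, 31 and 32 for TBX20, 169, 31 and 45 for GATA5 and 900, 137 and 183 for HAND2. Without RP22 replicate 1 their log2 fold changes were -2.42, -2.46 and -2.18, and without AA147 replicate 1 they were -5.04, -6.64 and -4.57. With limma-voom their adjusted p was 0.099, 0.088 and 0.2. The calls also ended without AA147 replicate 2 (0.07, 0.094 and 0.091) or AA147 replicate 3 (0.099, 0.12 and 0.11), for GATA5 and HAND2 without RP22 replicate 3 (0.059 and 0.054) or with no count filter (0.065 and 0.07), and for HAND2 without AA147 replicate 1 (0.064). The number of lower factors was 3 without AA147 replicate 2, 4 without AA147 replicate 3 and 5 without RP22 replicate 3, and the number of higher factors was 1 by library totals alone. NKX2-5, which marks the heart muscle lineage from early on, did not pass the count filter and had a mean of 0.232 CPM with RP22 and 0.179 CPM with AA147.

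Of 20 genes of the cardiomyocyte surface, metabolism and junctions, 13 were tested, and 5 were higher and 5 lower (background 29.8% and 32.2%, median 0.58). VCAM1, an adhesion molecule used to sort early heart muscle cells, had 210 reads with RP22 but 2 with AA147, 71.2 times as high (95% counting interval 19.5 to 591.75), with only 21 of these in RP22 replicate 1. TECRL, an enzyme gene of the heart, fell by 4.22 ± 0.787 on the log2 scale, with 13, 0 and 1 reads against 137, 101 and 134, and without AA147 replicate 1 its log2 fold change was -7.21. POPDC2, a membrane protein that binds cyclic AMP in heart and skeletal muscle, rose (3.61 ± 0.290, from 3.91 to 50.8 CPM). The highest edgeR adjusted p among these 3 genes was 0.0036.

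**Figure D4:**
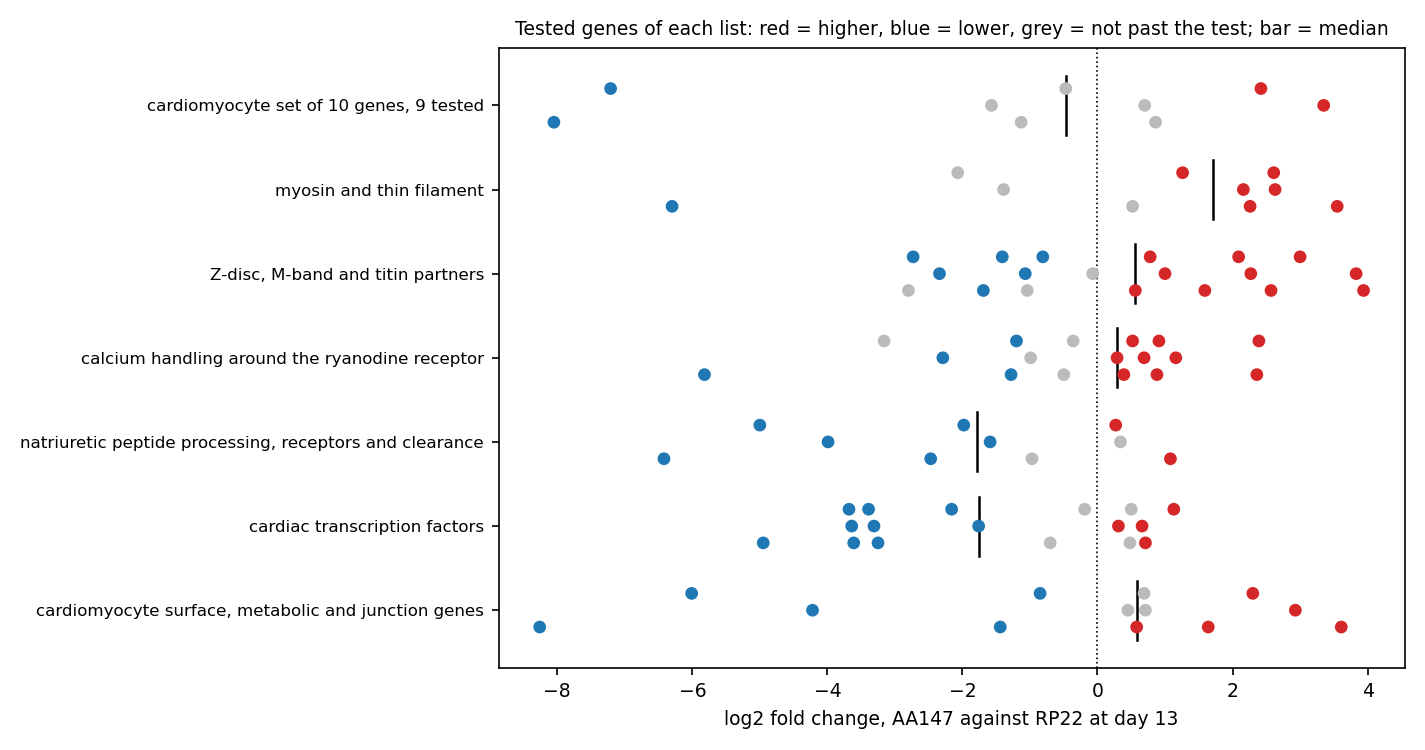
Log2 fold change of AA147 against RP22 at day 13 for the tested genes of the cardiomyocyte set and of the 6 related lists. Each point is a gene, red when higher, blue when lower and grey when not past the edgeR test, and bars are medians. Points of genes with no reads in a group are at their fitted value, which is no bound. The thick and thin filament list has its median at 1.71, and the lists of natriuretic peptide partners and of transcription factors at -1.79 and -1.76.

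Markers of other cell types moved along with these genes. The background for their counts is again 29.8% of all tested genes higher and 32.2% lower with AA147. Of 10 smooth muscle markers, 8 were higher and none lower with AA147 than with RP22 (edgeR, median 1.81; 0 lower at an unadjusted p under 0.05 or with DESeq2), with summed levels of 6107 to 6848 CPM against 1073 to 1287 CPM, and 374.9 to 410.1 CPM at day 1. None of these 10 was without reads in either day 13 group, and MYH11, the smooth muscle heavy chain, stayed at 2.92 CPM with AA147 and 1.94 CPM with RP22. Of 16 skeletal muscle markers, 4 were tested, 1 higher and 3 lower, with summed levels of 47.1 to 79.5 CPM with AA147 and 30.1 to 45.1 CPM with RP22. The higher one was skeletal alpha-actin, ACTA1 (53.2 and 10.2 CPM), and without it the sums were 3.59 to 9.18 CPM with AA147 and 20.6 to 33.1 CPM with RP22. The skeletal regulator genes MYOD1, MYOG, MYF5 and MYF6 had no reads with AA147 and means of at most 0.121 CPM with RP22. Without RP22 replicate 1 the lower skeletal markers numbered 5, and without RP22 replicate 3 only 1. Of 9 markers of epicardium and cardiac fibroblasts, 8 were tested, with 3 higher and 1 lower, and summed levels of 11030 to 16870 CPM with AA147 against 2262 to 7592 CPM with RP22, most of it from COL1A1. No marker of that list was lower without AA147 replicate 2 or 3 or without RP22 replicate 2 or 3. Of 8 endothelial markers, 6 were tested and 5 were lower with AA147, with summed levels of 7.45 to 24.6 CPM against 89.0 to 185.5 CPM, and without RP22 replicate 1 the lower ones numbered 3. ACTC1 and MYL7 moved in the same direction as the smooth muscle markers, as did MYL9, itself a smooth muscle gene. MYH6 and MYH7 moved in the other, and the part of these cell types in the result was not tested.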

How the data were processed

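RNA sequencing was deposited as 2 tables of 27772 rows for 9 libraries, 3 per group. The authors' count table holds expected counts per gene, which were rounded. Of all its cells, 0.914% lay above the floor of 0.05 and had a fraction, none of them for the 10 genes. The floor was set to 0, and 42 symbols on 2 rows were summed. The deposited RPKM values have a floor of 0.002, also set to 0. Per the submitters' processing notes reads were placed on GRCh37.p13, while aligner, counter and strand use were not given in the sources used here. Counts were tested with edgeR 4.0.16 (R 4.3.3; TMM, filterByExpr, quasi-likelihood test) on the libraries of the 2 groups compared, with Benjamini-Hochberg adjustment over all genes tested and a threshold of 0.05, and the script was tested on simulated data. Alternatives were DESeq2 1.42.0, limma 3.58.1 (voom on counts, and log2(RPKM + 0.1) or log2(RPKM + 1) with a filter at 0.5 RPKM), other scalings, no filter, all libraries in 1 fit, a replicate block and each library left out. Running these alternatives on the lists and on the genes named from them, bounds with a library left out, and the skeletal sum without ACTA1 were added after seeing the data. Members and lists were chosen with earlier results of these data known. All members are named, with the 4 called genes of largest change from each list (1 of them is not reported here), the 2 nearest profiles, and others singled out after their values were seen (FURIN, CSRP3, NKX2-5 and marker genes). Folds against a group with no reads use a floor of 3 reads over the group, and ratios have exact 95% intervals that cover counting error only. The labels call the replicates independent experiments and do not say more of their source, so p-values measure the spread between these samples.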

Additional observations from a re-analysis of the deposited data

How the results depend on the processing

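For AA147 against RP22, the calls of MYH6, MYL7 and NPPB were the same in 17 of 17 alternatives and that of MYH7 in 15 of 15. The 2 lower members became 4 by library totals alone, without replicate 1 of both groups, with limma on log2(RPKM + 0.1) without a filter, and with a replicate block. Leaving out 1 library gave 2 to 3 lower and 2 to 3 higher. For RP22 against day 1, the 0 lower members became 1 (NPPA) with limma on log2(RPKM + 0.1) or log2(RPKM + 1) and stayed 0 to 0 with 1 library left out, with 6 to 7 higher. For AA147 against day 1, the 0 lower members became 2 by library totals alone (ACTN2 and TTN), 1 with limma on log2(RPKM + 0.1) or log2(RPKM + 1), 2 with limma without a filter, and 0 to 1 with 1 library left out, with 4 to 4 higher. Estimates that changed sign were those of ACTN2 for RP22 against day 1 (-0.18 without replicate 1 of both groups, -0.05 to 0.37 with 1 library left out) and RYR2 for AA147 against day 1 (-0.27 by library totals, -0.22 with limma without a filter, -0.28 to 0.64 with 1 library left out). The cause was not tested. The difference in NPPB share was 2.49 points from RPKM and 2.03 to 3.77 with 1 library left out. The deviations of same-numbered AA147 and RP22 libraries correlated at 0.214, 0.164 and 0.076. The main fit had group as its only term, so the numbers were not used as pairs there, and a shared source was not excluded. The block gave 8674 calls against 8865, and put MYL4 (-1.83, edgeR adjusted p = 0.008), TNNT2 (0.95, 0.033) and TTN (-0.44, 0.04) past the threshold. Few reads limit NPPA, ACTN2, MYH7 and any comparison of MYH6 with day 1 under AA147, and the difference in MYH6 share was not run for lack of reads.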

Other observations

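Apart from MYL4, some other muscle genes had most of their AA147 reads in replicate 1, and are named here after their values were seen. So did markers of other cell types, such as TCF21 of the epicardium (21, 1 and 0 reads) and TEK of the endothelium (45, 7 and 2). The heart genes MYL2 (11, 20 and 14 reads) and SMYD1 (5, 18 and 60) did not. Slow skeletal troponin I (TNNI1), listed above with the myosin and thin filament genes and not with the skeletal markers, had 49, 11 and 8 reads with AA147. It had 260, 60 and 74 with RP22, and the log2 fold change of AA147 against RP22 was -2.07 ± 0.933 (SE, edgeR adjusted p = 0.1). Fast skeletal troponin T (TNNT3) had 12, 0 and 3 reads with AA147 and 44, 26 and 73 with RP22 (-2.73 ± 0.810, edgeR adjusted p = 0.022). The cardiac myosin light chain kinase MYLK3, which is in none of the lists, had 19, 4 and 3 reads with AA147, 166, 64 and 81 with RP22 and 9, 5 and 4 at day 1 (-3.09 ± 0.710 for AA147 against RP22, edgeR adjusted p = 0.0084).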
